A study of Mus musculus with 6 samples.

Results

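Insulin and the insulin-like growth factors (IGFs) are related hormones that act through a small set of shared components, and 10 of their genes are described here in TM3 cells given the kinase inhibitor pyrotinib. The genes were taken by name from the deposited tables: the ligands Igf1 and Igf2, the receptors Igf1r, Insr and Igf2r, the receptor substrates Irs1 and Irs2, and the binding proteins Igfbp3, Igfbp4 and Igfbp5. They are 10 of 54532 genes in the tables, and 7 of the 10 had enough reads to be tested, against 14125 genes tested in all. With pyrotinib, Igf1 and the genes of both signalling receptors, Igf1r and Insr, rose 1.57-fold, 1.35-fold and 1.30-fold. After a correction for GC content these rises were 1.31-fold, 1.35-fold and 1.26-fold. Igfbp4, the most abundant member, fell 1.16-fold, a call that was lost under the same correction. Igf2r, Irs1 and Irs2 did not pass the test, and Igf2, Igfbp3 and Igfbp5 had between 0 and 12 reads over the 6 libraries.

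TM3 is an established line of mouse Leydig cells, the testicular cells that make testosterone. The 3 control libraries came from cultures with 0.1‰ dimethyl sulfoxide (DMSO) and the 3 treated libraries from cultures with 100 nM pyrotinib, all collected at 48 h. The labels do not say whether the treated cultures also held DMSO. Nor do they say that replicates were grown apart, and the p-values therefore cover library-to-library spread, which may be technical. Pyrotinib is an irreversible inhibitor of the ErbB receptor kinases.

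IGF1, IGF2 and insulin bind receptor tyrosine kinases encoded by Igf1r and Insr, which phosphorylate the docking proteins IRS1 and IRS2 and so feed the PI3K-AKT and RAS-ERK cascades. IGF2R binds IGF2 and carries it to the lysosome without a kinase of its own, and the IGFBPs hold IGFs in the medium until proteases release them. In the testis, IGF1 is known as a factor for Leydig cell growth and differentiation.

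Library totals ran from 15005737 to 16171030 counts, and expression is given as CPM, counts scaled to library size, with the trimmed mean of M-values (TMM). Of 9 Leydig cell markers, Hsd3b6 and Lhcgr had no reads. Cyp11a1, Cyp17a1, Hsd3b1, Hsd17b3 and Nr5a1 had 2 to 19 reads each over the 6 libraries. The summed level of the 9 was 4.37 to 5.5 CPM with DMSO and 6.14 to 7.74 CPM with pyrotinib. Star and Insl3 gave most of this sum, and neither passed the edgeR test (adjusted p = 0.17 and 0.33). By comparison, 6 fibroblast and mesenchymal genes summed to 17000 to 17400 CPM with DMSO and 16200 to 16600 CPM with pyrotinib. Col1a1 was the largest part of that sum, with means of 8944 CPM with DMSO and 8414 CPM with pyrotinib. Thy1, another of the 6, had 4 reads over the 6 libraries. The lists for Sertoli, germ, endothelial and macrophage cells summed to at most 3.99 CPM in any library. The list for smooth muscle and myoid cells summed to 72.6 to 86.7 CPM. Most of that sum was Acta2, at 62.7 to 77.7 CPM, while Tagln had 11 reads over the 6 libraries. Mitochondrial genes took 2.03 to 2.16% of counts with DMSO and 2.70 to 3.60% with pyrotinib. Expression in pyrotinib replicates 1 and 3 also followed the GC content of transcripts, changing by -0.24 and -0.27 log2 units per 10 percentage points of GC relative to DMSO, while the slope lay between -0.01 and 0.02 in the other 4 libraries. The part of these differences, and of the marker sums, in the results was not tested beyond the corrections given. Values after a correction for this trend, and in pyrotinib replicate 2 alone against the 3 DMSO libraries, are therefore given beside each tested member. Pyrotinib replicate 2 alone is a treated arm of 1 library, so its p-values take their spread from the DMSO libraries only, assume that the lone library varies as they do, and are no replicate check of a change. In RNA from whole cultures, fewer cells expressing a gene and less RNA per cell cannot be told apart.

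In the edgeR quasi-likelihood test, 3 of the 7 tested members were higher with pyrotinib and 1 was lower at an adjusted p under 0.05. Over all tested genes 26% passed, 13.2% higher and 12.8% lower. The 7 had at least 157 reads in every library. The median log2 fold change was 0.305 over the 7 and 0.0022 over all tested genes. Groups did not overlap for 5 members that were higher and 1 that was lower. Of all tested genes 40.9% were so separated, 20.6% higher and 20.3% lower. After the GC correction 4 of the 7 passed, with 27.9% of all tested genes, and with pyrotinib replicate 2 as the lone treated library 3 passed, with 6.9%. The plot of CPM by library shows each value.

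**Figure D1:**
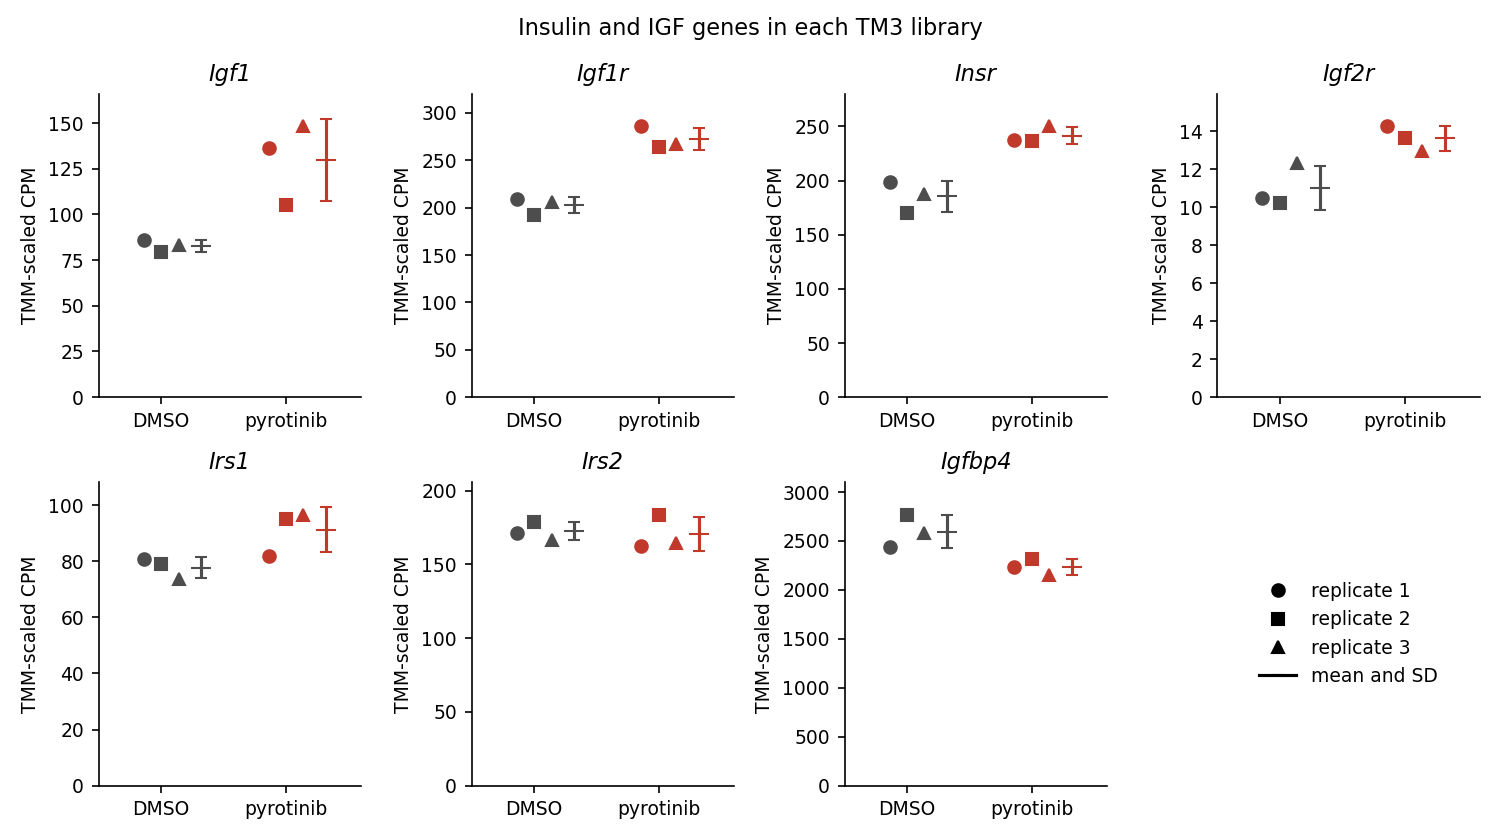
TMM-scaled CPM (vertical axis, from 0) of the 7 tested insulin and IGF genes in the 3 DMSO and 3 pyrotinib libraries, with a symbol for each replicate and the mean and SD of each group. All 3 pyrotinib libraries lie above all 3 DMSO libraries for Igf1, Igf1r, Insr, Igf2r and Irs1 and below them for Igfbp4, and the groups overlap for Irs2.

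Igf1, which encodes the main growth-promoting ligand of IGF1R, is at chromosome 10, 87858265 to 87937042 (mm10, plus strand). Its transcripts stood at 86.0, 79.5 and 83.3 CPM with DMSO and at 137, 105 and 148 CPM with pyrotinib. The DMSO libraries lay close together, while pyrotinib replicate 2 stood well below replicates 1 and 3 and above every DMSO library. Igf1 rose from 82.9 ± 3.25 to 130 ± 22.4 CPM (mean ± SD, n = 3), a log2 fold change of 0.65 ± 0.11 SE (edgeR adjusted p = 0.00038). Its longest annotated transcript held 38.0% GC, the lowest of the 10 members, against a median of 49.2% over tested genes. The log2 fold change was 0.38 after the GC correction (adjusted p = 0.00066) and 0.35 in pyrotinib replicate 2 alone, or 1.31-fold and 1.27-fold.

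Igf2, the fetal growth ligand, had 0 reads in every library, which allows up to 0.184 to 0.2 CPM per library (3 counts, counting error only). The genes whose spans overlap it, Gm49394, Mir483 and the antisense gene Igf2os, also had 0 reads. Gm49394 shares 16048 bases with Igf2 on the same strand, and how reads that could belong to both were counted is not stated, so the limit holds for counted reads only. Ins1 and Ins2, which encode insulin in the mouse, had none either. Igf1os, antisense to Igf1, had 18 reads over the 6 libraries against 10074 for Igf1.

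Both receptor kinase genes rose. Igf1r (chromosome 7, 67952827 to 68233668, plus strand) gave 209, 193 and 206 CPM with DMSO and 286, 264 and 267 CPM with pyrotinib. No pyrotinib library came near the DMSO range. Its mean went from 202 ± 8.49 to 272 ± 12 CPM, and the log2 fold change was 0.43 ± 0.08 SE (adjusted p = 0.00099). After the GC correction the log2 fold change was 0.43 (adjusted p = 0.00014), and in pyrotinib replicate 2 alone 0.39 (adjusted p = 0.017). Insr (chromosome 8, 3122061 to 3279617, minus strand), the insulin receptor gene, gave 199, 170 and 188 CPM with DMSO and 237, 237 and 250 CPM with pyrotinib. DMSO replicate 2 was the lowest, and the groups did not overlap. Its mean went from 186 ± 14.4 to 242 ± 7.68 CPM, and the log2 fold change was 0.38 ± 0.08 SE (adjusted p = 0.0031). Of the genes that overlap Insr, Vmn2r-ps88 had 26 reads in all and Gm16180 had 0. The log2 fold change of Insr was 0.33 after the GC correction (adjusted p = 0.0019) and 0.36 in pyrotinib replicate 2 alone.

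Igf1r and Insr have the longest gene models of the 10 members, 16791 and 13746 bases. After a correction for GC content and then length, their log2 fold changes were 0.39 (adjusted p = 0.00018) and 0.29 (adjusted p = 0.0028). The FPKM ratio of Igf1r to Insr within a library was 0.859, 0.927 and 0.898 with DMSO and 0.988, 0.911 and 0.874 with pyrotinib. The ratios overlapped between groups, with a log2 difference of 0.05 (two-sided exact permutation p = 0.5, adjusted p = 0.5 over 2 ratios, n = 3 per group). The smallest p that 3 against 3 libraries can give is 0.1.

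Igf2r (chromosome 17, 12682406 to 12769664, minus strand), which clears IGF2 and also sorts lysosomal enzymes, was the least expressed of the tested members. It gave 10.5, 10.2 and 12.4 CPM with DMSO and 14.3, 13.6 and 12.9 CPM with pyrotinib. The lowest pyrotinib library lay just above the highest DMSO library. The log2 fold change of 0.30 ± 0.14 SE did not pass (adjusted p = 0.13), nor did 0.35 after the GC correction (adjusted p = 0.063) or 0.31 in pyrotinib replicate 2 alone (adjusted p = 0.35). Igf2r is imprinted in the mouse, and Airn, a long non-coding RNA that starts inside Igf2r on the other strand, silences its paternal copy. Airn gave 17.1, 11.4 and 14.9 CPM with DMSO and 21.6, 19.7 and 25.6 CPM with pyrotinib. It rose 1.54-fold (log2 fold change 0.62 ± 0.15 SE, adjusted p = 0.0058), and in pyrotinib replicate 2 alone the log2 fold change was 0.45 (adjusted p = 0.18). The spans of Airn and Igf2r share 28354 bases, and no strand-marking step is given for the libraries, so reads from the shared stretch cannot be told apart.

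Neither receptor substrate passed the test. Irs1 (chromosome 1, 82233101 to 82291416, minus strand) gave 80.7, 79.0 and 73.5 CPM with DMSO and 81.9, 95.2 and 96.6 CPM with pyrotinib. Pyrotinib replicate 1 was only just above the DMSO range. The log2 fold change of 0.23 ± 0.09 SE missed the threshold (adjusted p = 0.067). It passed after the GC correction at 0.26 (adjusted p = 0.020) and without pyrotinib replicate 1 at 0.31 (adjusted p = 0.038), but not in pyrotinib replicate 2 alone at 0.30 (adjusted p = 0.080) or without any other single library (adjusted p = 0.065 to 0.263). Irs2 (chromosome 8, 10984681 to 11008458, minus strand) gave 172, 179 and 167 CPM with DMSO and 163, 184 and 165 CPM with pyrotinib. The groups overlapped, and the log2 fold change was -0.02 ± 0.08 SE (adjusted p = 0.91). Its sign turned to 0.12 after the GC correction (adjusted p = 0.16) and 0.10 in pyrotinib replicate 2 alone (adjusted p = 0.57). Their transcripts held 50.3% GC (Irs1) and 56.6% GC (Irs2). Gm9747, which overlaps Irs1, had 0 reads, and 9530052E02Rik, which overlaps Irs2, had 10.

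The FPKM ratio of Irs2 to Irs1 was 3.08, 3.28 and 3.28 with DMSO and 2.88, 2.79 and 2.47 with pyrotinib. Every pyrotinib library had a lower ratio than every DMSO library, with a log2 difference of -0.25 (exact permutation p = 0.1, two-sided and the lowest possible here; adjusted p = 0.2 over 2 ratios, n = 3 per group). After the GC correction the difference of the log2 fold changes was -0.14. Irs3 had 7 reads over the 6 libraries and Irs4 had 0.

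Igfbp4 was the most abundant member. This binding protein, which restrains IGF action until cleaved by the protease PAPP-A, is encoded at chromosome 11, 99041244 to 99054392 (plus strand), and took 0.217 to 0.268% of all reads. It gave 2434, 2770 and 2581 CPM with DMSO and 2232, 2317 and 2150 CPM with pyrotinib. DMSO replicate 2 was the highest, and the groups did not overlap. Its mean went from 2595 ± 168 to 2233 ± 83.3 CPM, and the log2 fold change was -0.22 ± 0.08 SE (adjusted p = 0.043). That call was lost after the GC correction, with a log2 fold change of -0.10 (adjusted p = 0.21), and in pyrotinib replicate 2 alone, at -0.16 (adjusted p = 0.32). It was also lost without DMSO replicate 2 (-0.17, adjusted p = 0.14), DMSO replicate 3 (-0.22, adjusted p = 0.13), pyrotinib replicate 1 (-0.21, adjusted p = 0.12) or pyrotinib replicate 3 (-0.19, adjusted p = 0.17).

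Igfbp3, the main carrier of IGFs in serum, had 0, 1 and 1 reads with DMSO and 0, 7 and 3 with pyrotinib. Igfbp5, which binds IGFs at the matrix, had 0, 0 and 1 reads with DMSO and 0, 3 and 0 with pyrotinib. So few reads cannot show a change in either gene, and no ratio of Igfbp4 to Igfbp5 could be formed.

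Levels between genes can be set side by side only per length, for which the deposited FPKM (fragments scaled to gene length and library size) was used. With DMSO, Igfbp4 stood at 604 ± 40.1 FPKM, the gene at rank 48 of 54532, and 21.6 times the next member, Irs2, at 28.0 ± 1.03 FPKM. Insr (13.9 ± 1.06 FPKM) and Igf1r (12.4 ± 0.501) followed and overlapped each other. Irs1 (8.73 ± 0.420 FPKM) and Igf1 (8.60 ± 0.323) also overlapped, and Igf2r was lowest at 1.22 ± 0.128 FPKM. With pyrotinib the order was Igfbp4, Irs2, Insr, Igf1r, Igf1, Irs1 and Igf2r. Igf1, at 10.7 to 15.2 FPKM, then lay above Irs1, at 9.11 to 10.7 FPKM, with the lowest Igf1 library close to the highest Irs1 library.

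**Figure D2:**
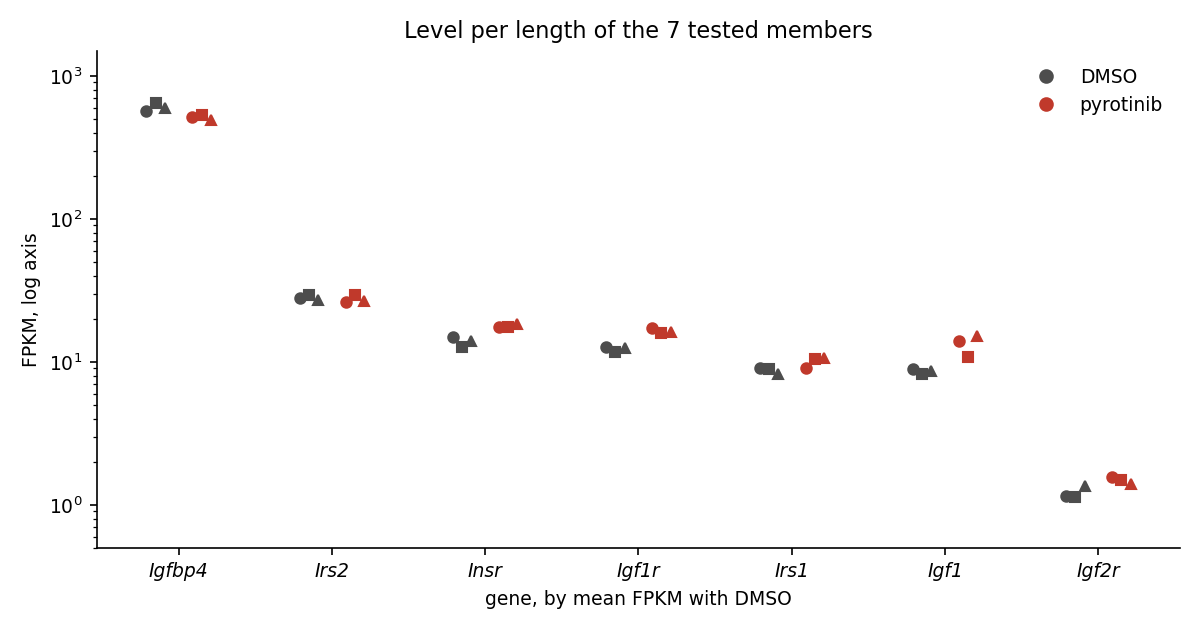
FPKM on a log axis of the 7 tested members in each library, ordered by their mean with DMSO; grey symbols are DMSO and red symbols pyrotinib, and circles, squares and triangles are replicates 1, 2 and 3. Igfbp4 lies between 494 and 645 FPKM, and every other member lies below 30 FPKM.

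Promoter windows of 300 bases, from 250 before to 50 after the RefSeq start (build GRCm38.p6), were used for 9 of the 10 members, all but Insr. The windows of Igf1 and Igf1r are shown because these genes rose and their windows differ in base composition. That of Igf1r (chr7:67952007-67952306, plus strand) held 76.0% GC and 2 matches to the GC box GGGCGG, in capitals, and its start lies 570 bases before that of the deposited gene model. That of Igf1 (chr10:87860861-87861160, plus strand) held 52.3% GC and none of the motifs searched; its start lies 2846 bases inside the deposited model. The median over all windows was 52.7% GC.
Igf1r: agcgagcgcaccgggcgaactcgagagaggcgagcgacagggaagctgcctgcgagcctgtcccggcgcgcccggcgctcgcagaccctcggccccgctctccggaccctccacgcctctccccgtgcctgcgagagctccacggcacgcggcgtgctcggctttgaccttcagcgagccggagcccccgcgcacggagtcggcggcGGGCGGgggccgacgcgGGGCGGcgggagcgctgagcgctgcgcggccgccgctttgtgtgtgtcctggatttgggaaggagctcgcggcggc
Igf1: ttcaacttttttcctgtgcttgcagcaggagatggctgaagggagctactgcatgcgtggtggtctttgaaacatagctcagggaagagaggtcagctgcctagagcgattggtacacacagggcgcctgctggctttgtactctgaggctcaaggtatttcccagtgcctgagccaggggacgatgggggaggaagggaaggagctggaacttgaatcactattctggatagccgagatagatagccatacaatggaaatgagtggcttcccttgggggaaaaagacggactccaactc

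Motifs were searched on both strands. The FOXO core GTAAACA was in none of the 12 member windows (Igf2 has 4) and in 3.65% of all 32851 windows. The GC box GGGCGG was in 6 of the 12 and 35.7% of all. The E-box CACGTG, a palindrome chosen after the sequences were seen, was in 3 of the 12 and 7.15% of all. Those 3 were the windows of Irs1, Irs2 and Igf2r, none of which passed the expression test. These windows held 71.3%, 72.0% and 70.7% GC, against a median of 52.7% over all windows. The shares over all windows were not matched for GC content, so the motif counts cannot show enrichment. The Irs1 and Irs2 stretches are shown because the E-box, in capitals, lies inside gtCACGTGtt, a run of 10 letters found in both windows. No longer run is shared, and tgttttgctc is another shared run of that length. The E-box begins 115 bases before the Irs1 start and 44 before the Irs2 start. Igf2r, whose E-boxes begin 48 and 7 bases before its start, is shown for comparison. These matches describe the letters of the windows only.
Irs1 (chr1:82291531-82291566, minus strand): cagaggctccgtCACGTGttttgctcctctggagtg
Irs2 (chr8:11008950-11008985, minus strand): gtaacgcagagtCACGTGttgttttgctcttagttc
Igf2r, far E-box (chr17:12769731-12769766, minus strand): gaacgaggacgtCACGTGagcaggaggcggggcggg
Igf2r, near E-box (chr17:12769690-12769725, minus strand): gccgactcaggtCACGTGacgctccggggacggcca

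Other genes of the pathway were read from 7 lists of 57 genes, 43 of them tested, where 5 were higher and 4 lower. Their median log2 fold change was 0.03, against 0.0022 over all tested genes. The 9 calls in 43 stand beside 26% of all tested genes, 13.2% higher and 12.8% lower. Those shares also stand beside the count of each list below. The lists hold 2 to 12 tested genes each, and none was tested as a set. The plot of log2 fold changes shows each tested gene by role.

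**Figure D3:**
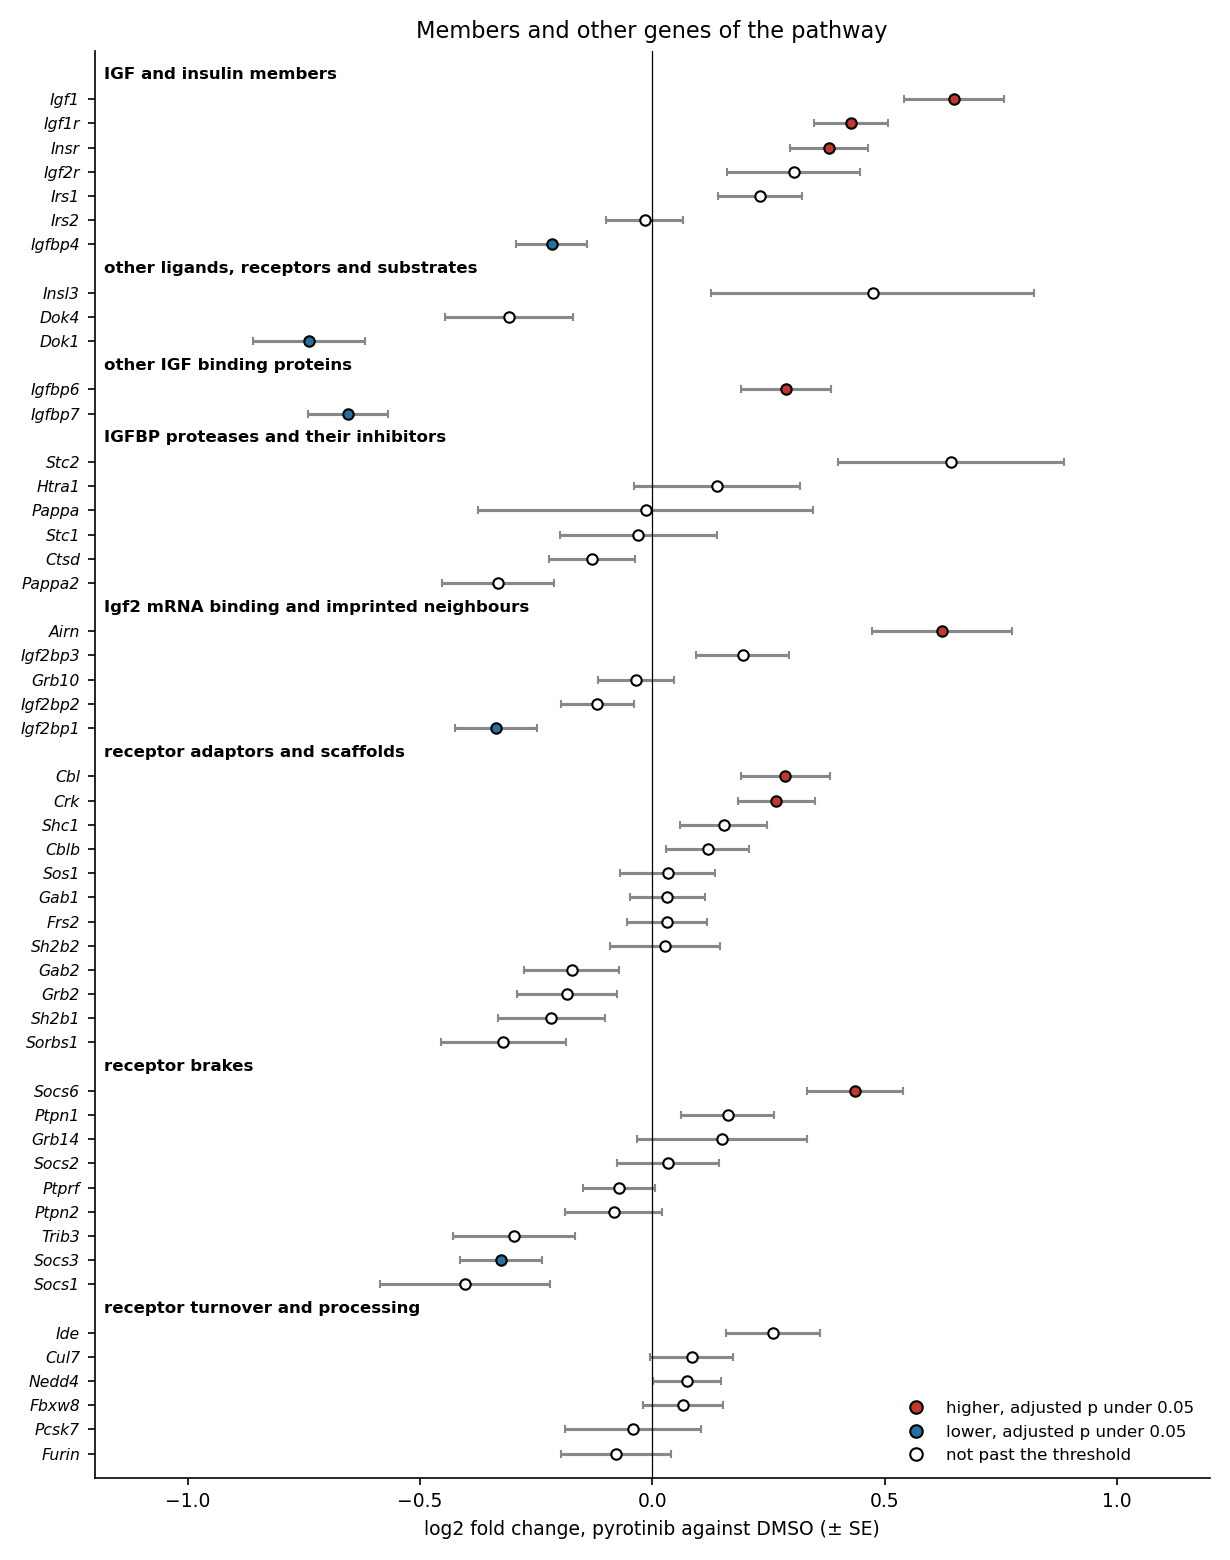
Log2 fold change with pyrotinib against DMSO (horizontal axis, bars ± SE) of the 7 tested members and the 43 tested genes of the other pathway lists, grouped by role. Red and blue points passed an adjusted p of 0.05 upward and downward; Igf1 is the highest of the members at 0.65, and Dok1 the lowest point of all at -0.74.

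Among the other binding proteins, 1 of 2 tested genes rose and 1 fell, and Igfbp1, Igfbp2 and Igfbpl1 had no reads. Igfbp7, a secreted relative that binds IGFs weakly, ranked after Igfbp4 in this family at 298 FPKM with DMSO. It gave 352, 375 and 327 CPM with DMSO and 231, 234 and 203 CPM with pyrotinib, without overlap. It fell 1.57-fold, with a log2 fold change of -0.65 ± 0.09 SE (adjusted p = 5.9e-05). Igfbp7 gave -0.50 after the GC correction (adjusted p = 5.7e-05) and -0.58 in pyrotinib replicate 2 alone. Igfbp6, which prefers IGF2, gave 74.2, 77.9 and 68.3 CPM with DMSO and 88.7, 101 and 79.3 CPM with pyrotinib. It rose 1.22-fold (adjusted p = 0.037). Its log2 fold change of 0.29 became 0.44 after the GC correction (adjusted p = 0.00026) and 0.46 in pyrotinib replicate 2 alone. The Igfbp6 call was lost without any 1 of the 3 DMSO libraries or without pyrotinib replicate 1 or 2 (adjusted p = 0.065 to 0.185).

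Of other ligands, receptors and substrates, 1 of 3 tested genes fell and none rose, and Ins1, Ins2, Insrr and Irs4 had no reads. Dok1, a docking protein phosphorylated by the insulin receptor and other kinases, gave 83.9, 105 and 88.0 CPM with DMSO and 53.3, 66.7 and 45.5 CPM with pyrotinib. Each pyrotinib library was below each DMSO library. Dok1 fell 1.67-fold, a log2 fold change of -0.74 ± 0.12 SE (adjusted p = 0.00035). That value was -0.60 after the GC correction (adjusted p = 0.00016) and -0.46 in pyrotinib replicate 2 alone.

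None of 6 tested IGFBP proteases and their inhibitors passed. The closest were Pappa2, a protease of IGFBP3 and IGFBP5, at a log2 fold change of -0.33 (adjusted p = 0.0504), and Stc2, an inhibitor of PAPP-A, at 0.64 (adjusted p = 0.059). Among Igf2 mRNA-binding proteins and imprinted neighbours, 1 of 5 tested genes rose, Airn, and 1 fell. The gene that fell was Igf2bp1, whose protein binds mRNAs including that of Igf2, with a log2 fold change of -0.34 (adjusted p = 0.0094). That call held after the GC correction (-0.30, adjusted p = 0.0042). It was lost without DMSO replicate 2 (adjusted p = 0.056) and without pyrotinib replicate 3 (adjusted p = 0.063). In pyrotinib replicate 2 alone the log2 fold change was -0.21. Grb10, an imprinted adaptor that binds and inhibits both receptors, gave 401 ± 17.6 CPM with DMSO and 391 ± 26.0 CPM with pyrotinib, and its log2 fold change was -0.03 ± 0.08 SE (adjusted p = 0.79).

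Of 12 receptor adaptors and scaffolds, 2 rose and none fell, where 13.2% of all tested genes rose and 12.8% fell. Cbl, a ubiquitin ligase and adaptor of receptor kinases, had a log2 fold change of 0.29 (adjusted p = 0.034), and Crk, an adaptor that binds phosphorylated scaffolds, had 0.27 (adjusted p = 0.023). In pyrotinib replicate 2 alone these were 0.13 (adjusted p = 0.53) and 0.17 (adjusted p = 0.27), and after the GC correction 0.23 (adjusted p = 0.032) and 0.15 (adjusted p = 0.076). Cbl did not pass when DMSO replicate 2 or 3, or pyrotinib replicate 1 or 3, was left out (adjusted p = 0.093 to 0.19), and Crk without any library except pyrotinib replicate 2 (adjusted p = 0.055 to 0.12).

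Of 9 tested receptor brakes, 1 rose and 1 fell, where 13.2% of all tested genes rose and 12.8% fell. Socs6, a suppressor of cytokine signalling protein that binds the insulin receptor, rose 1.35-fold (log2 fold change 0.44, adjusted p = 0.0053). Socs3, which promotes degradation of IRS proteins, fell 1.25-fold (log2 fold change -0.32, adjusted p = 0.012). Neither passed after the GC correction, at 0.22 and -0.18 (adjusted p = 0.0505 and 0.053), or in pyrotinib replicate 2 alone, at 0.23 and -0.19 (adjusted p = 0.26 for each). Socs3 also failed to pass when DMSO replicate 3 (adjusted p = 0.055) or pyrotinib replicate 3 (adjusted p = 0.072) was left out. None of 6 tested genes of receptor turnover and processing passed; the closest were Ide, the insulin-degrading enzyme, at a log2 fold change of 0.26 (adjusted p = 0.067), and the ubiquitin ligase Nedd4 at 0.08 (adjusted p = 0.48).

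The plot of settings sets the members side by side under every processing. Igf1r passed in all 20 alternatives, with log2 fold changes from 0.38 to 0.45. Igf1 and Insr passed in 19 of 20, Igfbp4 in 9, Irs1 in 5, and Igf2r and Irs2 in none. The share of all tested genes that passed was 25.5 to 26% with other tools or scalings (DESeq2 25.5%, limma-voom 25.8%, median-ratio 25.9%). It was 28% with a filter of 1 CPM in 3 libraries, 14.2% with nearly no filter, 30.2% with a replicate block, 31.4% with the block and GC correction, and 28% with the GC and length correction. On FPKM it was 15.5% with either pseudocount and 2.11% with no filter. Leaving out DMSO replicate 1, 2 or 3 gave 21%, 13.5% and 16.9%, and leaving out pyrotinib replicate 1, 2 or 3 gave 17.7%, 35.9% and 14.9%.

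**Figure D4:**
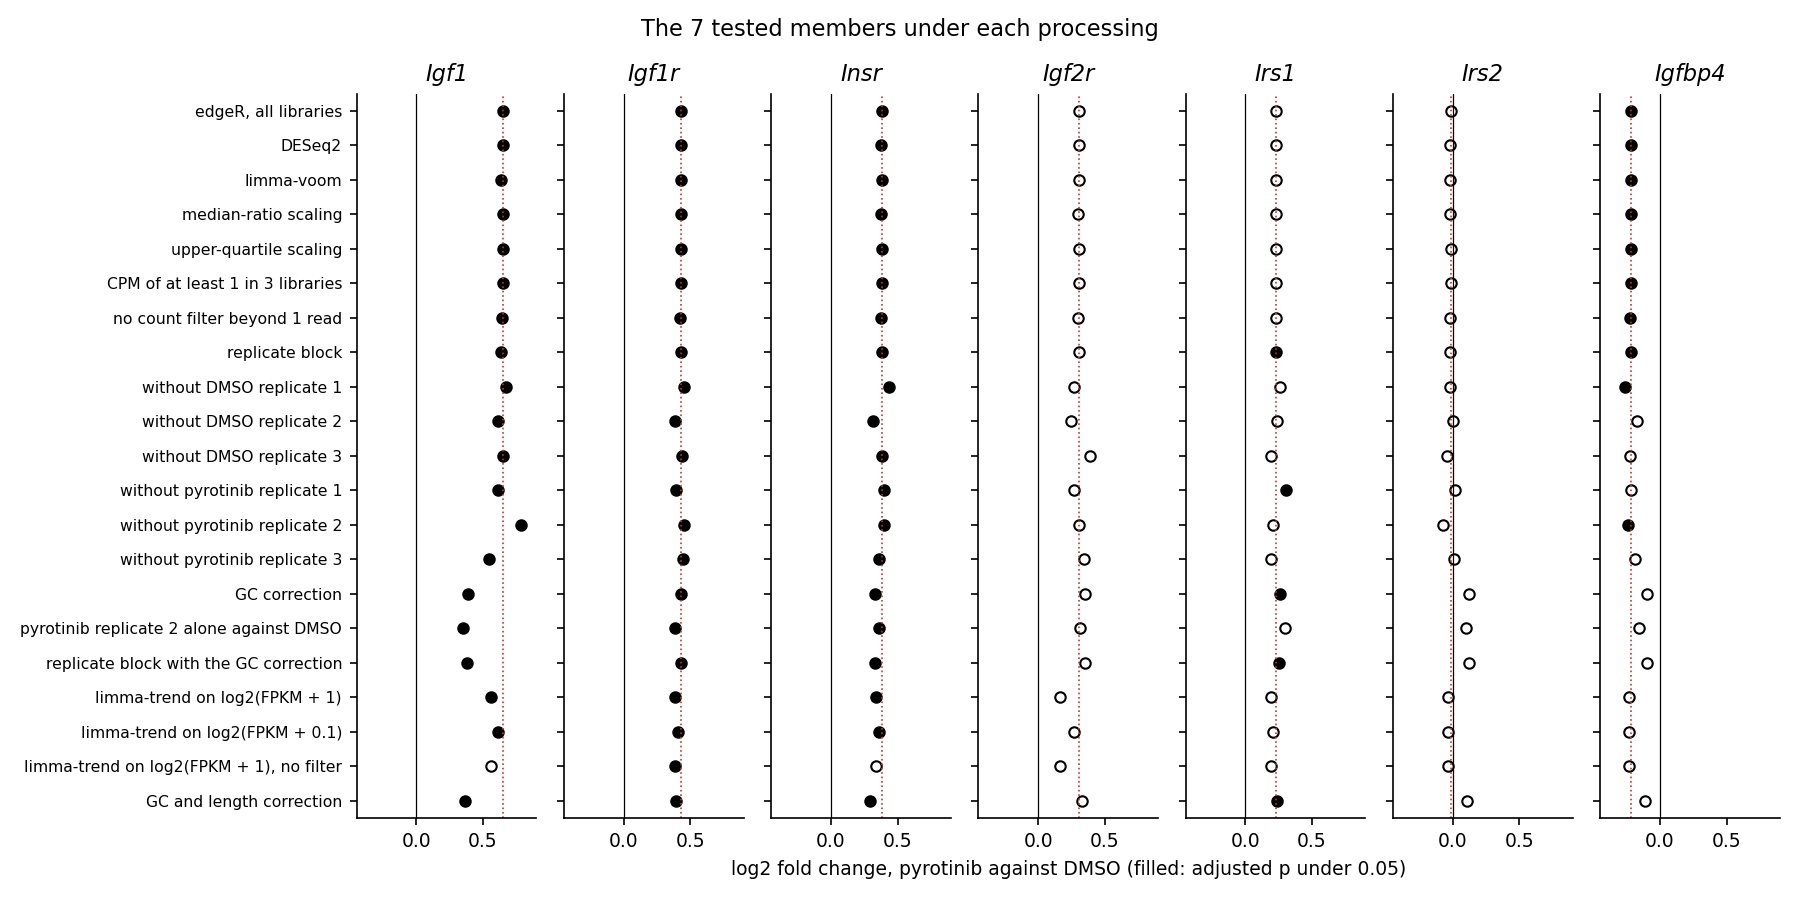
Log2 fold change of each tested member (horizontal axes) under edgeR with all libraries and the 20 alternatives (rows). Filled points passed an adjusted p of 0.05, and the dotted line marks the edgeR value; Igf1 spans 0.35 to 0.78, and Igf1r stays between 0.38 and 0.45.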

How the data were processed

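Poly(A) RNA from 3 DMSO and 3 pyrotinib samples was sequenced as paired-end reads, per the labels' protocols. Build mm10 and the tools DESeq2 1.20.0, featureCounts 1.5.0-p3, HISAT2 2.0.5 and fastp come from the submitters' processing notes. For their roles, the annotation release and the strand setting, details were not given in the sources used here. Raw counts per gene and a second table of FPKM per gene, whose library size is of unstated origin, were deposited by the authors.

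Counts were filtered by filterByExpr (minimum count 10, minimum total 15), scaled by TMM and tested with edgeR 4.0.16 in R 4.3.3 (two-sided quasi-likelihood F-test, no replicate block, Benjamini-Hochberg adjustment over 14125 genes, threshold 0.05). An SE is the size of the log2 fold change over the root of its F statistic. GC content came from the longest GENCODE M21 transcript, found for 99.9% of tested genes; corrections used lowess curves of span 0.3 for each library. Alternatives used DESeq2 1.42.0, limma 3.58.1 (voom, and trend on log2 of FPKM plus 1 or 0.1, mean FPKM of at least 0.5 or no filter), other scalings and filters, a replicate block and leaving out libraries; the GC and length correction and the GC values of the ratios were added after seeing the data.

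The members, lists and tests were chosen with earlier results of these data known. All 10 members are named; from each list, genes past the threshold, or the closest 2 where none passed, are named. Grb10 and Insl3 were named after their values were seen, as were genes named only for having few or no reads. Replicates differed beyond sampling noise, with a chi-square of 4.14 to 16.2 for each degree of freedom. Proteins were not analysed here.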

Additional observations from a re-analysis of the deposited data

How the results depend on the processing

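The count over all genes, 3667, was 1055 in pyrotinib replicate 2 alone (1 treated library, assumed to vary like DMSO), 2179 and 2185 by limma-trend on FPKM with a pseudocount of 1 and 0.1, 561 by the same with no filter, and 1956 to 5226 without 1 library (1956 without DMSO replicate 2, 2164 without pyrotinib replicate 3). Of members, 4 passed with all libraries and 1, Igf1r, by limma-trend with no filter on FPKM, where Igf1 (0.56, adjusted p = 0.075) and Insr (0.34, adjusted p = 0.058) did not; 561 of 26564 genes passed there. Irs1 passed with the replicate block (0.23, adjusted p = 0.048), the GC correction (0.26), the block with it (0.25) and the GC and length correction (0.24), and ranged from 0.19 to 0.31 without 1 library. The log2 fold change of Irs2 turned to 0.12 with the GC correction, 0.12 with the block as well, 0.11 with GC and length and 0.10 in pyrotinib replicate 2 alone, and ranged from -0.070 to 0.018 without 1 library. Igfbp4 did not pass with the GC correction (-0.10), the block with it (-0.10), GC and length (-0.11), pyrotinib replicate 2 alone (-0.16) or limma-trend on FPKM (-0.23 with a pseudocount of 1, with and without the filter, and -0.23 with 0.1), and ranged from -0.26 to -0.17 without 1 library. The cause was not tested. The Irs2 to Irs1 difference was -0.14 with the GC correction and -0.29 to -0.18 without 1 library. Counts of the other pathway genes are given with the share of all tested genes that passed in brackets. With all libraries 9 of 43 passed (26%), and with the block and GC correction 16 of 43 (31.4%). By limma-trend 4 of 42 passed with a pseudocount of 1 (15.5%) and 5 of 42 with 0.1 (15.5%). With a pseudocount of 1 and no filter, 1 of 48 passed (2.11%). Without 1 library the count ran from 5 to 15. It was 5 of 43 without pyrotinib replicate 3 (14.9%) and 15 of 44 without pyrotinib replicate 2 (35.9%).

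Deviations of same-numbered libraries from their group means had correlations of 0.00498, 0.076 and 0.0226 for replicates 1, 2 and 3. Pairs with unlike numbers had -0.0715 to 0.0562. DMSO replicates 2 and 3 each correlated best with their own number, and DMSO replicate 1 with pyrotinib replicate 3 (0.0562). With 3 libraries per group, such small values cannot decide whether the numbers mark a pairing. With the replicate block the count over all genes was 4265, and the ratio differences were the same by construction. Igf2, Igfbp3 and Igfbp5 had too few counted reads to be tested; 3 counts correspond to 0.184 to 0.2 CPM.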

Other observations

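Over the 6 libraries, the pattern of Igf1, the member with the smallest adjusted p, was most like those of Man1a, N6amt1 and Man2a1, with Pearson correlations of log2 CPM of 0.999, 0.999 and 0.998. Man1a and Man2a1 encode mannosidases that trim N-glycans in the Golgi. Their fold changes with pyrotinib were 1.41 for Man1a, 1.30 for N6amt1 and 1.40 for Man2a1. The points share their libraries and 2 groups, and 617 of 9932 protein-coding genes with a mean of at least 5 CPM correlated above 0.95 with Igf1. The CPM values used here were not corrected for GC content. Igf1 was highest in pyrotinib replicates 1 and 3, the libraries with GC slopes of -0.24 and -0.27. The part of that GC trend in these correlations was not tested, and they describe these libraries only.

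H19, the imprinted non-coding RNA beside Igf2, had 5, 2 and 9 reads with DMSO and 0, 3 and 2 with pyrotinib. Igfals, which encodes the subunit that keeps IGF complexes in serum, had 47 reads over the 6 libraries. Insl3, an insulin-like hormone of mature Leydig cells, gave 2.18 ± 0.992 CPM with DMSO and 3.04 ± 1.08 CPM with pyrotinib (edgeR log2 fold change 0.47 ± 0.35 SE, adjusted p = 0.33).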
